A study of Mus musculus with 18 samples.

Results

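The motile cilia genes are 61 of the 54446 genes in a table of read counts from mouse neocortex. They are every gene whose symbol follows the naming pattern of the axonemal dynein heavy chains (Dnah, 15 genes), the dynein assembly factors (Dnaaf, 4), the cilia and flagella associated proteins (Cfap, 29) or the radial spoke proteins (Rsph, 8), together with Foxj1, Hydin, Lrrc23, Dynlrb2 and Crocc2. The patterns use no measured value. The set as a whole, and the 5 genes chosen by name, were picked with earlier results of these data known, above all the levels in layers 5-6 of the GFP mice. Those levels and the FOXP2 and GFP difference there are therefore given as a description, with no p-value for a member, and nothing is read from the counts of calls in comparisons that use those libraries.

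A cortical excitatory neuron carries a single primary cilium that does not beat. Motile cilia stand in tufts on multiciliated cells, in the brain above all the ependymal cells that line the ventricles and move the cerebrospinal fluid. The shaft, or axoneme, is a ring of microtubule doublets around a central pair. Outer and inner dynein arms slide the doublets, radial spokes link them to the central pair, and assembly factors build the dynein arms in the cytoplasm before transport. The transcription factor Foxj1 turns on this programme together with the RFX factors, which bind a palindromic site called the X-box.

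The study introduced plasmids into the ventricular wall of CD-1 mice, an outbred stock, by in utero electroporation on day E14.5 of gestation. FOXP2 mice received human FOXP2 cDNA (huFOXP2, 2 mice) or mouse Foxp2 cDNA (moFoxp2, 1 mouse) together with Gfp cDNA. They were set against 3 mice labelled GFP, and the plasmid the protocol names besides the FOXP2 ones is an empty one. All were killed at postnatal day 7, sagittal sections of 300 µm were cut, and 3 depths of neocortex were taken by microdissection: layers 2-3 (L2-3), layer 4 (L4) and layers 5-6 (L5-6). The labels describe L2-3 as well as L5-6 as infragranular, which for L2-3 is at odds with its place above layer 4; the layer names are used here as given. The tissue of a layer was pooled within a mouse, which gave 18 libraries of total RNA. Electroporation reaches only some cells. The labels call the cells of L4 GFP-positive and those of L2-3 and L5-6 GFP-negative, so that the L5-6 libraries hold tissue that the labels do not describe as electroporated. Library totals were 10111149 to 23404528 counts, so 1 count was worth 0.0427 to 0.0989 CPM, the unit of counts scaled to a common library size. Foxp2 itself had 20.2 to 52.3 CPM in L2-3 of FOXP2 mice, against 1.77 to 6.53 CPM in L2-3 of GFP mice, and 33.3 to 64.9 CPM in L4 of FOXP2 mice, against 5.38 to 8.74 CPM in L4 of GFP mice. In L5-6 the groups overlapped, with 39.6 to 77.7 CPM in FOXP2 mice and 52.4 to 68.6 CPM in GFP mice.

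Promoter sequences were looked at first, because the RFX half-site is a feature that the choice of genes did not use. RefSeq promoters of build GRCm38.p6, from 250 bases before to 50 after the gene's start, were matched for 48 of the 61 members. The half-site GTTGCC, on either strand, stood in 20 of these 48 (41.7%), against 14.1% of 27025 genes with a promoter in the same table. The near-identical copies Dnah7a, Dnah7b and Dnah7c each held a half-site and were counted separately. A full X-box (GTTNCC followed after 0 to 3 bases by GGNAAC, a pattern that can overlap the half-site) stood in 1 of 48 (2.08%), that of Cfap298, against 0.936% of all genes. Several half-sites in the sequences printed next face an imperfect partner, such as gttgct before GGCAAC in Hydin and Cfap44. A search for GTTGCC followed after 5 bases by AAC, on either strand, was added after these sequences had been seen, and found 5 of 48 members (10.4%) and 0.67% of all genes. The core TGTTTAC of a forkhead site, the family of Foxj1, stood in 3 of 48 (6.25%), against 4.05% of all genes.

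The following sequences are shown because they are the members that stood highest in L5-6 of all 3 GFP mice (described further on) and had a half-site within 100 bases before the start, with Cfap20, an abundant member of even level, for comparison. Each is cut short of any annotated UTR or coding base, runs 5′ to 3′ on the gene's strand, and has the half-sites in capitals.
Hydin (chr8:110266877-110266976, plus strand): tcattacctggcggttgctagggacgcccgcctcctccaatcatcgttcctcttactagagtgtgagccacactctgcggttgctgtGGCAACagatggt
Lrrc23 (chr6:124779728-124779827, minus strand): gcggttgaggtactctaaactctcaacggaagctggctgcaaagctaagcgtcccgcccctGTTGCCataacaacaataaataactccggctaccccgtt
Dynlrb2 (chr8:116504915-116504973, plus strand): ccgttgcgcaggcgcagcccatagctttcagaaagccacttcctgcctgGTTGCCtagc
Cfap44 (chr16:44394699-44394795, plus strand): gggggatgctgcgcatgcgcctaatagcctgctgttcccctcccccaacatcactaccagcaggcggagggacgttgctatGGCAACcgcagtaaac
Cfap46 (chr7:139683818-139683915, minus strand): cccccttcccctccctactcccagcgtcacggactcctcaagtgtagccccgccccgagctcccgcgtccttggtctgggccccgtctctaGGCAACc
Cfap161 (chr7:83794881-83794939, minus strand): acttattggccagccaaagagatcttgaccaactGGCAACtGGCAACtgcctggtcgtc
Cfap20 (chr8:95434870-95434969, minus strand): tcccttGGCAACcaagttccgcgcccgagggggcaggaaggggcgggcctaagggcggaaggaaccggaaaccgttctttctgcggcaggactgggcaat
Among members with a matched promoter, 8 of the 16 that stood highest in L5-6 of GFP mice and 12 of the 32 others held a half-site in the whole window. A match of letters is not a measurement of binding.

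In L5-6 the motile cilia genes had a lower mean in FOXP2 mice than in GFP mice for 57 of 61 members, and for 30 the GFP mean was at least 2 times the FOXP2 mean. In 21 members all 3 GFP L5-6 libraries lay above all 15 other libraries of the study. These were 8 Cfap, 6 Dnah, 1 Dnaaf and 1 Rsph genes and all 5 chosen by name. Of the 15952 genes that passed the filter on low counts, 1.5% had that pattern. The 3 FOXP2 L5-6 libraries lay below the 3 GFP ones without overlap in 33 members and above them in 0, against 6.8% and 6.72% of genes. The pattern was noticed in these values, so its counts describe the set and test nothing.

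**Figure D1:**
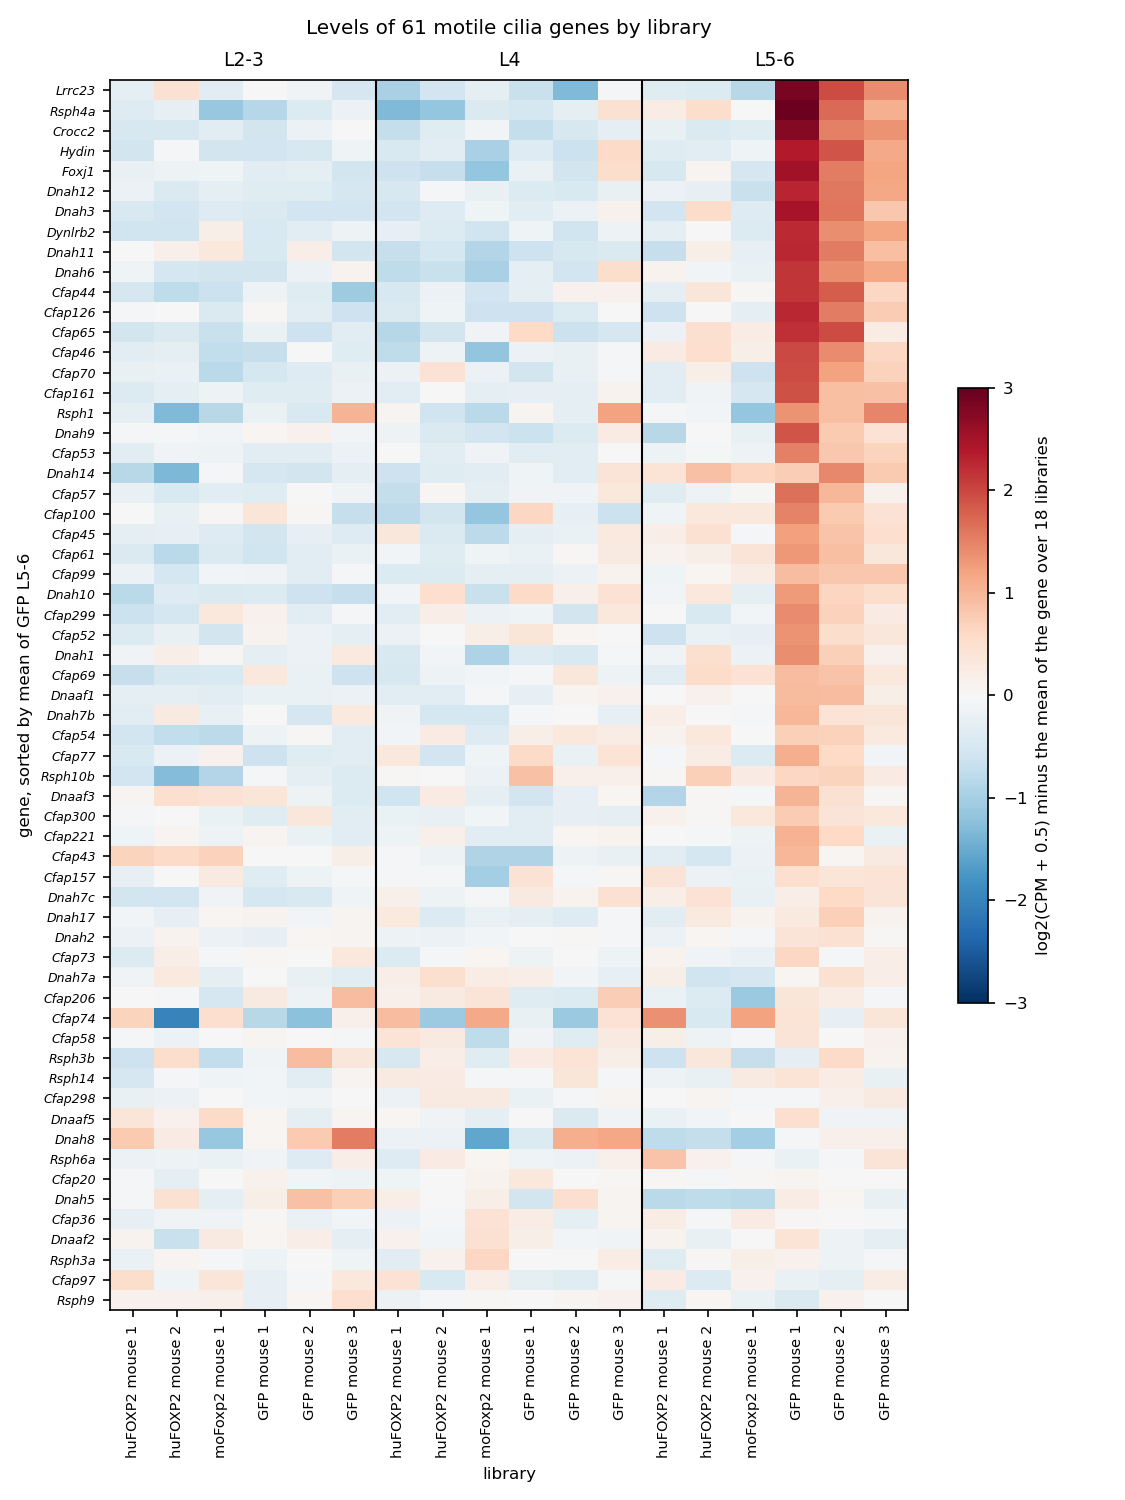
Each row is 1 of the 61 motile cilia genes and each column 1 of 18 libraries, with FOXP2 mice left of GFP mice in each layer. Colour gives log2(CPM + 0.5) minus the mean of the gene over the 18 libraries, and rows are sorted by their mean in GFP L5-6. The top rows are dark in the 3 GFP L5-6 columns and near even elsewhere, and the bottom rows, such as Cfap36 and Rsph9, show no such block.

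Foxj1 (chr11:116330704-116335399, minus strand), the transcription factor that drives motile ciliogenesis, had 2.92, 4.56 and 2.87 CPM in L5-6 of huFOXP2 mouse 1, huFOXP2 mouse 2 and the moFoxp2 mouse, against 27.1, 13.5 and 10.5 CPM in L5-6 of GFP mice 1, 2 and 3. The groups did not overlap, and the log2 fold change was -2.30 ± 0.39 (edgeR, SE, n = 3 each). In the other layers Foxj1 was never at 0: it had 1.65 to 3.93 CPM in FOXP2 mice and 2.80 to 6.42 CPM in GFP mice, with the highest of these in L4 of GFP mouse 3.

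Hydin (chr8:110266977-110610253, plus strand) encodes a protein of the central pair. It had 0.408, 0.439 and 0.559 CPM in L5-6 of the 3 FOXP2 mice, in the same order of mice as above, against 5.56, 3.79 and 2.04 CPM in GFP mice 1, 2 and 3, a log2 fold change of -3.0 ± 0.45. L4 of GFP mouse 3 had 1.22 CPM, the highest value outside L5-6 of GFP mice. Lrrc23 (chr6:124769863-124779727, minus strand), a radial spoke protein, had 0.475, 0.439 and 0.21 CPM in L5-6 of FOXP2 mice, against 8.56, 4.40 and 2.86 CPM in those of GFP mice (log2 fold change -3.77 ± 0.53). All 3 GFP values again lay above every other library, of which L2-3 of huFOXP2 mouse 2 was the highest at 1.22 CPM.

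Dynlrb2 (chr8:116504974-116515915, plus strand), a dynein light chain, had 0.136, 0.274 and 0.0699 CPM in L5-6 of FOXP2 mice, against 3.07, 1.5 and 1.22 CPM in GFP mice. Crocc2 (chr1:93168725-93231072, plus strand), a relative of rootletin, which builds the rootlet below the cilium, had 0.204, 0.11 and 0.14 CPM in FOXP2 mice, against 5.05, 1.82 and 1.58 CPM in GFP mice. Their log2 fold changes were -3.45 ± 0.59 and -4.16 ± 0.66. Outside L5-6 of GFP mice both genes were close to the limit of detection, with levels worth at most a few counts a library and several libraries at 0.

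**Figure D2:**
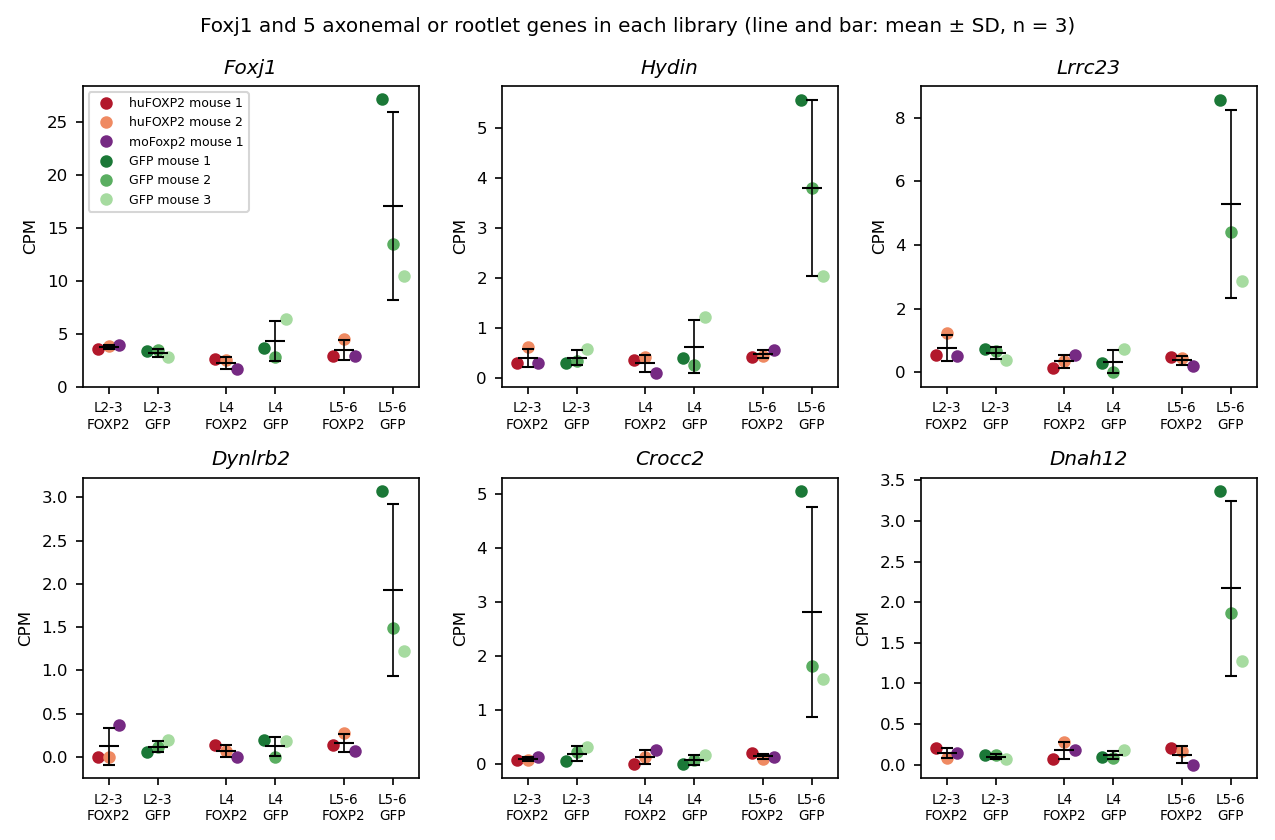
CPM of Foxj1, Hydin, Lrrc23, Dynlrb2, Crocc2 and Dnah12 in each of 18 libraries, with FOXP2 mice left of GFP mice in each layer. Points are mice, and line and bar give mean and SD of 3 mice. In L5-6 every GFP point lies above every FOXP2 point, and among GFP mice the order is mouse 1, mouse 2, mouse 3 in all 6 genes.

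Among the dynein heavy chains, the motors of the arms, Dnah12 had the largest difference (chr14:26693274-26891703, plus strand; inner arm). It had 0.204, 0.165 and 0 CPM in L5-6 of FOXP2 mice, against 3.37, 1.87 and 1.27 CPM in those of GFP mice (log2 fold change -4.01 ± 0.68). Dnah3 (-3.02 ± 0.91), Dnah11 (-2.94 ± 0.65, an outer arm chain), Dnah6 (-1.88 ± 0.32) and Dnah9 (-1.67 ± 0.47, outer arm) had the next largest differences. All 5 lay above every other library in L5-6 of the 3 GFP mice. Dnah6 had a base level of 2.72, 2.30 and 2.10 CPM in FOXP2 L5-6, against 12.7, 7.29 and 6.17 CPM in GFP L5-6.

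The 3 dynein chains of highest mean level did not lie above every other library in L5-6 of GFP mice. Dnah2, an inner arm chain, had 7.40, 8.73 and 8.11 CPM in L5-6 of FOXP2 mice, against 11.1, 11.6 and 8.62 CPM in GFP mice (-0.38 ± 0.18), and the groups overlapped. Dnah5, an outer arm chain often mutated in human primary ciliary dyskinesia, had 5.03, 5.16 and 5.03 CPM in FOXP2 mice, against 10.7, 9.54 and 7.80 CPM in GFP mice (-0.89 ± 0.18), without overlap. L2-3 of the same GFP mice had 10.3, 17.1 and 15.2 CPM of Dnah5, and the 3 FOXP2 L5-6 libraries were the lowest of all 18. Dnah8 had 1.97, 2.03 and 1.54 CPM in L5-6 of FOXP2 mice, against 3.59, 4.11 and 4.13 CPM in GFP mice (-1.10 ± 0.23), also without overlap. Over all layers it spread from 0.917 to 11.6 CPM. Its log2 fold change between FOXP2 and GFP mice was also below 0 in L4 (-1.43 ± 0.50) and in L2-3 (-0.79 ± 0.54).

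Of the radial spoke genes, Rsph4a, which belongs to the spoke head, had 1.15, 1.54 and 0.909 CPM in L5-6 of FOXP2 mice, against 10.4, 4.11 and 2.45 CPM in those of GFP mice (-2.21 ± 0.56). Rsph1, also of the spoke head, had 3.46, 3.35 and 1.33 CPM, against 9.88, 7.11 and 10.8 CPM (-1.77 ± 0.35). Unlike Rsph4a, Rsph1 was also high in the other layers of GFP mouse 3, at 7.83 CPM in L2-3 and 8.91 CPM in L4. Rsph9, another protein of the spoke head, had 8.76, 11.9 and 9.85 CPM in FOXP2 L5-6, against 8.34, 12.4 and 11.4 CPM in GFP L5-6 (-0.09 ± 0.20), and the groups overlapped. Rsph3a (-0.01 ± 0.27) and Rsph3b (-0.49 ± 0.40) also overlapped. They are near-identical copies, as are Dnah7a, Dnah7b and Dnah7c, and how reads were split between such copies is not given in the sources used here.

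Of the 4 assembly factors, Dnaaf1 alone stood above all other libraries in the 3 GFP L5-6 libraries. It had 0.204, 0.274 and 0.21 CPM in L5-6 of FOXP2 mice, against 0.878, 0.842 and 0.306 CPM in GFP mice, all of it near the level of a few counts. Dnaaf3 had a log2 fold change of -1.28 ± 0.57, Dnaaf5 of -0.25 ± 0.23 and Dnaaf2 of -0.07 ± 0.34.

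The Cfap genes ranged widely. Cfap161 (-3.79 ± 0.78) and Cfap126 (-3.63 ± 0.79), proteins of the inside of the doublets or tied to them, were at 0 to 0.274 CPM in L5-6 of FOXP2 mice, against 0.816 to 3.22 CPM in those of GFP mice. Cfap70 (-2.68 ± 0.65), Cfap65 (-2.02 ± 0.65) and Cfap44 (-1.93 ± 0.48) followed. Cfap36 had 85.6, 71.9 and 87.7 CPM in L5-6 of FOXP2 mice, against 76.0, 73.3 and 72.1 CPM in GFP mice (0.14 ± 0.10), and Cfap20 had 36.4, 34.1 and 36.1 CPM, against 37.8, 35.9 and 35.1 CPM (-0.04 ± 0.09). Cfap97 overlapped too (0.07 ± 0.22). The 3 genes Cfap36, Cfap20 and Cfap97 had the highest mean CPM of all 61 members. Cfap74, of the central pair, was the member with the largest difference in the other direction (0.77 ± 0.49), with 8.29, 1.98 and 7.41 CPM in FOXP2 mice and 4.02, 2.38 and 3.88 CPM in GFP mice.

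**Figure D3:**
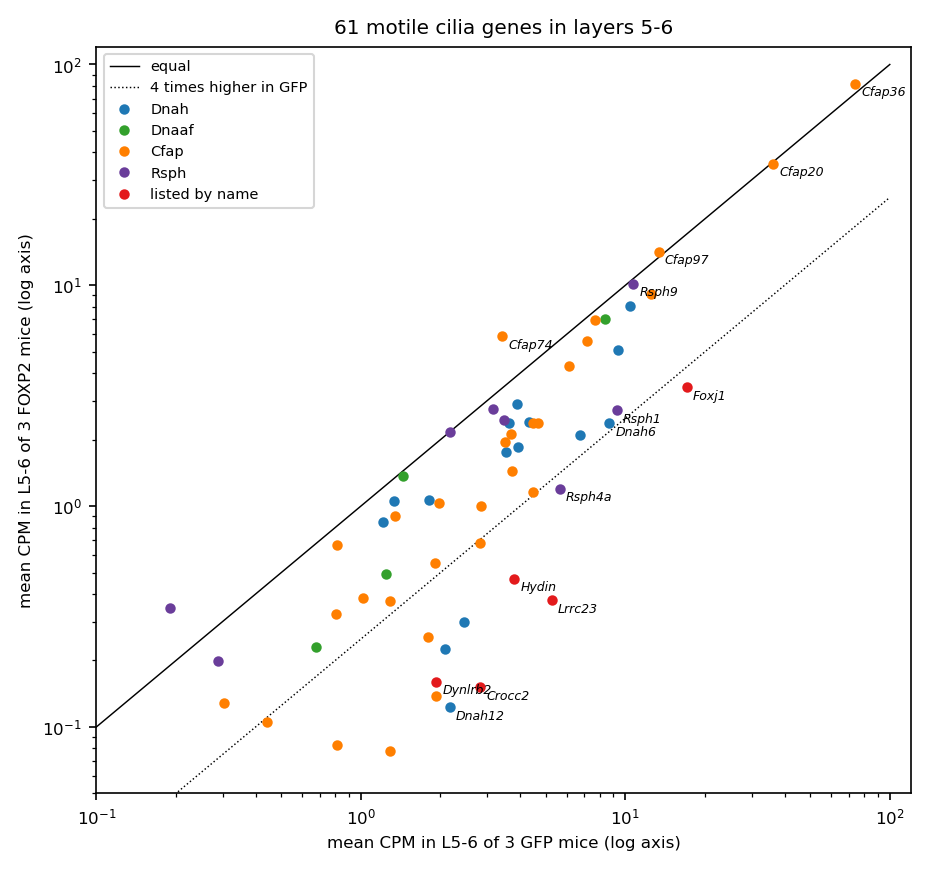
Each point is 1 of the 61 genes, with its mean CPM in L5-6 of 3 FOXP2 mice on the vertical and of 3 GFP mice on the horizontal log axis, coloured by family. Points on the solid line have equal means and points on the dotted line are 4 times higher in GFP. The most abundant genes, Cfap36 and Cfap20, lie on the solid line, and Hydin, Lrrc23, Dynlrb2, Crocc2 and Dnah12 lie below the dotted one.

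Per kilobase of exon, levels can be set beside each other between genes. In L5-6, Foxj1 had 1.31 CPM per kb in FOXP2 mice and 6.5 CPM per kb in GFP mice. Dynlrb2 had 0.288 CPM per kb in FOXP2 mice and 3.47 CPM per kb in GFP mice, and Lrrc23 had 0.216 CPM per kb in FOXP2 mice and 3.04 CPM per kb in GFP mice. The heavy chain Dnah12, with the longer transcript, had 0.0102 CPM per kb in FOXP2 mice and 0.181 CPM per kb in GFP mice. Cfap36 was above all of them, with 29.8 CPM per kb in FOXP2 mice and 26.9 CPM per kb in GFP mice.

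With edgeR's quasi-likelihood test and Benjamini-Hochberg adjustment over 15330 genes, 0 of the 54 members tested in L5-6 passed the threshold of 0.05, against 0.0196% of all genes. At an unadjusted p under 0.05 there were 31 members and 946 genes, and DESeq2 put 14 members past the threshold, all lower in FOXP2 mice. The median log2 fold change was -0.91 over the tested members and -0.01 over all genes tested, with 51 of 54 members below 0. As the members were chosen with this contrast known, nothing is read from these counts.

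The 3 GFP L5-6 libraries were not alike in height. The summed level of the 21 members was 14.8, 20.96 and 14.54 CPM in L5-6 of huFOXP2 mouse 1, huFOXP2 mouse 2 and the moFoxp2 mouse, against 124, 65.9 and 44.9 CPM in L5-6 of GFP mice 1, 2 and 3. The 12 libraries of L2-3 and L4 had 8.53 to 23.8 CPM, with L4 of GFP mouse 3 the highest of them. GFP mouse 1 was the highest library for 21 of the 21 members. Above the mean of the 3 FOXP2 L5-6 libraries, its excess was a median of 2.07 times that of GFP mouse 2 and 3.90 times that of GFP mouse 3. These ratios differed between members, with quartiles of 1.86 and 2.35 for mouse 1 over mouse 2 and of 2.89 and 5.33 for mouse 1 over mouse 3. The other 40 members summed to 224 to 238 CPM in L5-6 of FOXP2 mice, against 250 to 295 CPM in L5-6 of GFP mice. In bulk tissue fewer cells of a type and less RNA per cell cannot be told apart.

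Without GFP mouse 1, 24 members stood above all other libraries in L5-6 of the remaining GFP mice (2.24% of genes), and without GFP mouse 3 it was 36 (3.76% of genes). Without huFOXP2 mouse 1 it was 21 (1.78%). That mouse stood apart in another list, 15 photoreceptor genes, which summed to 18.4 to 33.6 CPM over its layers and to 1.74 to 4.19 CPM in the libraries of the other 5 mice, and its part in the results was not tested.

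**Figure D4:**
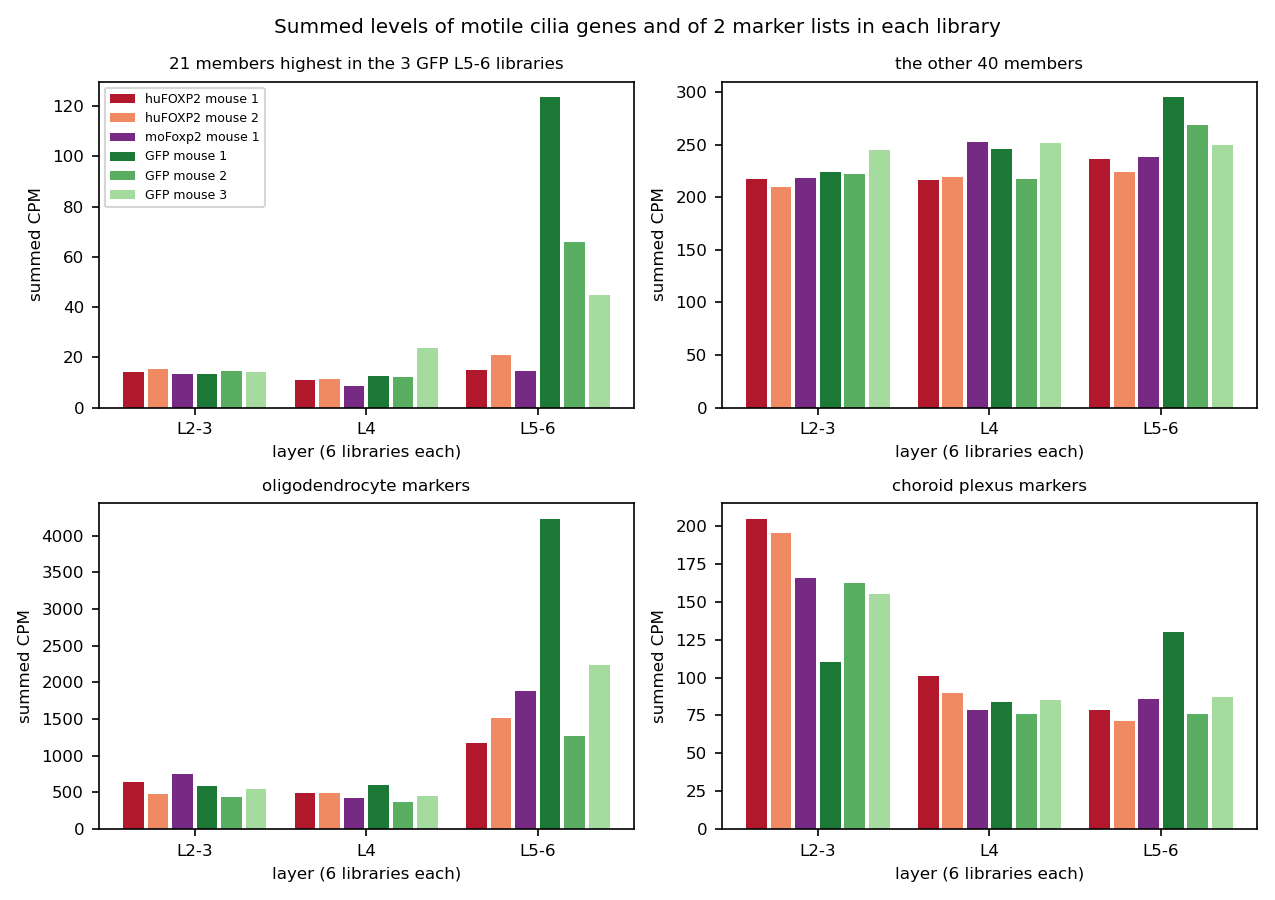
Summed CPM in each library (6 bars a layer, FOXP2 mice left of GFP mice) of the 21 members highest in GFP L5-6, of the other 40 members, of 10 oligodendrocyte markers and of 12 choroid plexus markers. The 21 members reach 124, 65.9 and 44.9 CPM in the 3 GFP L5-6 libraries and stay at or under 23.8 CPM elsewhere, while the oligodendrocyte sum is highest in L5-6 of GFP mouse 1 and the choroid plexus sum in L2-3.

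Genes of the same structures with other names were looked at beside the members. These lists and those further on were drawn up with earlier results of these data known. The pattern of all 3 GFP L5-6 libraries above all 15 others held for 1.5% of 15952 genes. The counts below describe the lists and are no separate support. Of 34 further axonemal genes in the table, such as Spag17, Tekt1 and Ccdc40, 16 stood above all 15 other libraries in the 3 GFP L5-6 libraries, and their sum was 175 to 184 CPM in L5-6 of FOXP2 mice, against 201 to 250 CPM in those of GFP mice. Of 12 further genes listed for ependymal cells, 5 had the pattern (Tmem212, Ccdc153, Fam183b, Sntn and 1700012B09Rik). Ccdc153 and Fam183b have since been assigned to the axoneme as well. Tmem212 had 0, 0.274 and 0 CPM in L5-6 of huFOXP2 mouse 1, huFOXP2 mouse 2 and the moFoxp2 mouse, against 4.10, 2.01 and 0.612 CPM in GFP mice 1, 2 and 3. The other ependymal genes, some of which neurons or glia also express (Cd24a, Tppp3), brought the sum of this list to 357 to 465 CPM in FOXP2 L5-6 and 346 to 534 CPM in GFP L5-6, which overlapped.

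Of 13 regulators of multiciliated cells, Deup1, Myb and Ccno had the pattern (sum of the list 95.6 to 119 CPM in FOXP2 L5-6, against 106 to 147 CPM in GFP L5-6). Deup1, which builds the deuterosomes that multiply centrioles, had 0.34, 0.329 and 0.14 CPM in L5-6 of FOXP2 mice, against 2.63, 1.40 and 0.918 CPM in GFP mice. The upstream regulators Gmnc (0.272 to 0.419 CPM in FOXP2 mice and 0.234 to 0.658 CPM in GFP mice) and Mcidas (0.272 to 1.21 CPM, against 0.512 to 1.17 CPM) overlapped. Of 10 assembly factors with other symbols, Spag1 alone had the pattern. Of 20 genes of the primary cilium, Nphp4 alone had it, and the sum of that list was 540 to 544 CPM in L5-6 of FOXP2 mice, within the 508 to 567 CPM of GFP mice.

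Markers of other cells near the ventricle or in the white matter were set beside these values. The choroid plexus, which also carries motile cilia, had 0 of 12 markers with the pattern. Its sum was 71.6 to 86.0 CPM in FOXP2 L5-6 and 76.1 to 130 CPM in GFP L5-6, most of it Enpp2, which oligodendrocytes also express. Folr1, a choroid plexus gene, had 0, 0.11 and 0.0699 CPM in L5-6 of huFOXP2 mouse 1, huFOXP2 mouse 2 and the moFoxp2 mouse, against 1.46, 0.327 and 0.663 CPM in L5-6 of GFP mice 1, 2 and 3, without overlap, and was the only one of the 12 in which all GFP values were the higher. The defining genes Kcnj13 and Otx2 were at 0 to 0.815 CPM in FOXP2 L5-6 and at 0 to 0.146 CPM in GFP L5-6, and Ttr at 0.28 to 6.04 CPM in FOXP2 L5-6 and 1.27 to 4.77 CPM in GFP L5-6. The 10 oligodendrocyte markers (0 with the pattern) summed to 1176 to 1879 CPM in FOXP2 L5-6 and to 1271 to 4232 CPM in GFP L5-6. The 4232 CPM came from GFP mouse 1, and the 1271 CPM from GFP mouse 2. The 9 markers of the ventricular and subventricular zone (0 with the pattern) summed to 821 to 1096 CPM in FOXP2 L5-6 and 883 to 972 CPM in GFP L5-6, most of it Dcx of young neurons. Sox2, Mki67 and Top2a, of progenitors and dividing cells, were lower in the 3 FOXP2 L5-6 libraries than in the 3 GFP ones without overlap. This held for 6.8% of all genes. Top2a had 28.7, 24.4 and 35.5 CPM in L5-6 of huFOXP2 mouse 1, huFOXP2 mouse 2 and the moFoxp2 mouse, against 77.3, 39.6 and 39.5 CPM in GFP mice 1, 2 and 3. In the difference of the FOXP2 effect between L5-6 and L2-3, 5 of the 9 were called lower and 1 higher, against 8.66% and 6.75% of all genes. Astrocyte markers had 5 of 9 called lower and 0 higher in the same contrast. The 9 astrocyte markers (0 with the pattern) summed to 3498 to 3711 CPM in FOXP2 L5-6 and 2889 to 5368 CPM in GFP L5-6. For meningeal fibroblasts (10 markers, 0 with the pattern) the sums were 36.9 to 48.6 CPM in FOXP2 L5-6 and 38.8 to 58.9 CPM in GFP L5-6. For excitatory neurons (8 markers, 0 with the pattern) they were 2357 to 3142 CPM in FOXP2 L5-6 and 1748 to 2709 CPM in GFP L5-6. GFP mouse 1 gave the highest GFP L5-6 sums of choroid plexus (130 CPM) and astrocyte markers (5368 CPM). It also gave the lowest ones of excitatory neurons (1748 CPM) and of the ventricular and subventricular zone (883 CPM). Of 4 pineal genes, Aanat, Asmt and Bsx were at 0 to 0.146 CPM in every L5-6 library of either group, and Tph1 had 0.699 to 1.32 CPM in FOXP2 L5-6 and 1.31 to 1.61 CPM in GFP L5-6. The part of the cells marked by these lists in the result was not tested.

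The FOXP2 mice by themselves allow a comparison of layers that does not use the GFP L5-6 libraries. It does use the FOXP2 L5-6 libraries, as does L5-6 against L4 further on. The difference of these libraries from GFP mice was known when the set was chosen. The p-values of these layer comparisons are therefore not independent of that choice. In FOXP2 mice, 40 members could be tested in L5-6 against L2-3, with the mouse as a block. Of these, 9 rose (against 19.8% of all genes) and 7 fell (against 21.6% of all genes), and the median log2 fold change was 0.15 over members and 0.00 over all genes. Both shares are near the background of all genes. Dnah14 had 2.38, 3.46 and 2.87 CPM in L5-6 of huFOXP2 mouse 1, huFOXP2 mouse 2 and the moFoxp2 mouse, against 0.701, 0.349 and 1.60 CPM in L2-3 (log2 fold change 1.69 ± 0.35, adjusted p = 0.00291, edgeR). Rsph10b had 2.11, 3.68 and 2.52 CPM in L5-6, against 1.20, 0.523 and 0.874 CPM in L2-3 (1.55 ± 0.32, adjusted p = 0.0029). Neither gene's L5-6 and L2-3 libraries overlapped. Exons of Dnah14 overlap those of Lbr, and those of Rsph10b overlap Pms2. Since the use of strand is not stated, their reads cannot be told apart there.

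The other risers in L5-6 of FOXP2 mice were Cfap46, Cfap44, Cfap61, Cfap74, Cfap69, Cfap54 and Cfap36. Cfap54, a large protein of the central pair and the best determined of them, had 8.83, 10.4 and 8.11 CPM in L5-6, against 5.32, 4.71 and 4.59 CPM in L2-3 (0.87 ± 0.15, adjusted p = 0.000949, edgeR). Cfap36 had the smallest of these changes (0.29 ± 0.11, adjusted p = 0.0481, edgeR). Cfap44 passed the filter on low counts through L5-6, where it is high. In the other direction Cfap43 was lowest, with 2.38, 2.03 and 2.73 CPM in L5-6, against 5.28, 4.97 and 5.39 CPM in L2-3 (-1.15 ± 0.23, adjusted p = 0.00271). Dnah5 (-0.91 ± 0.18, adjusted p = 0.00232) and Dnah8 (-1.13 ± 0.30, adjusted p = 0.0118) also fell, by the same test. So did Dnaaf3 (-1.09 ± 0.38), Dnaaf5 (-0.50 ± 0.15), Rsph9 (-0.33 ± 0.12) and Cfap97 (-0.29 ± 0.10). Dnaaf3 passed the filter on low counts through L2-3, where it is high, so its p-value is not given. The calls of Dnah5, Cfap54 and Cfap43 were kept in the 7 alternative fits of this contrast.

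In GFP mice, whose L5-6 libraries lay behind the choice of the set, 55 members could be tested, 15 of which passed the filter on low counts that left them out in FOXP2 mice. In L5-6 against L2-3, 31 were called higher (12.0% of all genes were) and 0 lower (against 10.7%), with a median of 1.17 over members and -0.01 over all genes. Of the 50 tested members found by name pattern alone, 26 were called higher. Dnah12 had 3.37, 1.87 and 1.27 CPM in L5-6 of GFP mice 1, 2 and 3, against 0.114, 0.113 and 0.0636 CPM in L2-3 (log2 fold change 4.35 ± 0.43). Dnah3 had 104 counts in L5-6 against 1 count in L2-3, summed over GFP mice, a ratio of 97.0 with a 95% exact interval of 17.0 to 3868 that covers counting error only. Cfap161 (3.85 ± 0.59), Cfap126 (3.74 ± 0.68), Rsph4a (3.26 ± 0.63), Cfap70 (3.22 ± 0.56), Cfap65 (3.19 ± 0.54) and Dnah11 (3.00 ± 0.47) followed. The 5 genes chosen by name were higher by 2.34 ± 0.37 (Foxj1), 3.05 ± 0.52 (Lrrc23), 3.22 ± 0.58 (Hydin), 3.67 ± 0.62 (Crocc2) and 3.91 ± 0.55 (Dynlrb2) on the log2 scale. These values rest on the libraries that lay behind the choice of the set, so they are a description as well and no separate support for the one above. Without GFP mouse 2 the count was 18 in place of 31.

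8 members were called higher in L5-6 than in L2-3 in both sets of mice: Cfap44, Cfap46, Cfap54, Cfap61, Cfap69, Cfap74, Dnah14 and Rsph10b. They were 88.9% of the 9 called in FOXP2 mice, against 32.9% of all genes called there. They were 25.8% of the 31 called in GFP mice, against 53.1% of all genes called there. Members that the filter on low counts left out in FOXP2 mice could not be called in both, so nothing is read from these shares. Cfap54 had nearly the same size in both, 0.87 ± 0.15 in FOXP2 mice and 0.75 ± 0.13 in GFP mice, as had Dnah14, 1.69 ± 0.35 in FOXP2 mice and 1.83 ± 0.32 in GFP mice. For Cfap44 the values were 1.03 ± 0.34 in FOXP2 mice and 2.76 ± 0.40 in GFP mice. In the fit of the difference between the sets of mice described further on, the log2 values were 0.13 ± 0.19 for Cfap54, -0.13 ± 0.53 for Dnah14 and -1.72 ± 0.59 for Cfap44, given as values only.

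**Figure D5:**
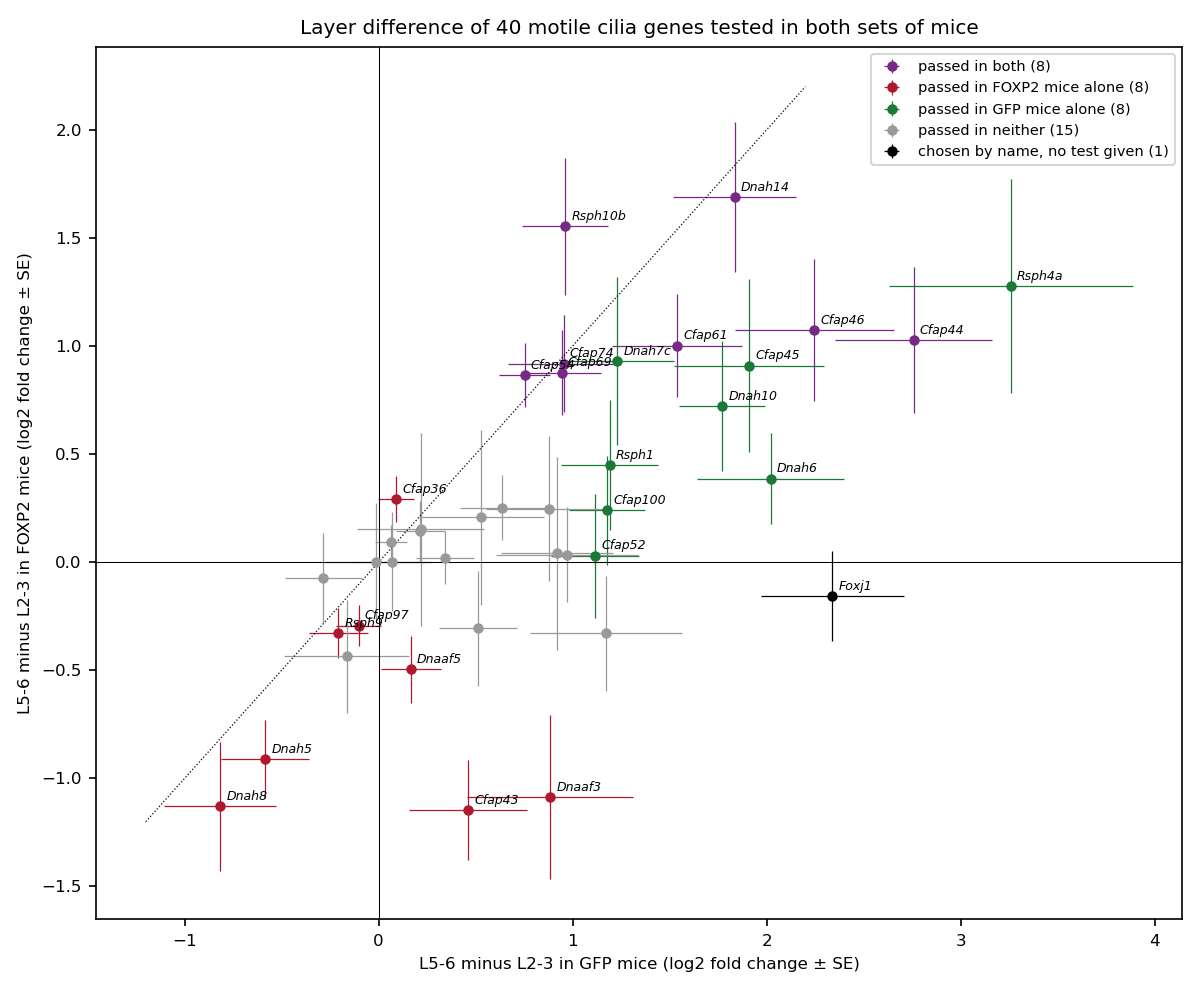
Log2 fold change ± SE of L5-6 over L2-3 in FOXP2 mice (vertical) and in GFP mice (horizontal) for the 40 members tested in both, coloured by which of the tests they passed, which is no test of a difference between the sets of mice. Dnah14, Rsph10b and Cfap54 lie near or above the dotted line of equal change, and Foxj1, drawn in black because it was chosen by name, is at -0.16 in FOXP2 mice and 2.34 in GFP mice.

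L4 is the layer that the labels tie to GFP-positive cells. In L4 against L2-3 of FOXP2 mice, 2 members rose (against 19.5% of all genes) and 6 fell (against 23.5%). The risers were Rsph10b (1.02 ± 0.34, adjusted p = 0.034, edgeR) and Cfap54 (0.64 ± 0.15, adjusted p = 0.00659). Foxj1 was among those that fell, with 2.64, 2.49 and 1.65 CPM in L4 of huFOXP2 mouse 1, huFOXP2 mouse 2 and the moFoxp2 mouse, against 3.59, 3.84 and 3.93 CPM in L2-3, groups that did not overlap (-0.77 ± 0.22). As Foxj1 was chosen by name with earlier results known, its values are a description and no p-value is given. The others were Cfap43 (-1.10 ± 0.24), Cfap100 (-1.06 ± 0.30), Dnah8 (-0.80 ± 0.29), Dnah1 (-0.67 ± 0.24) and Dnaaf5 (-0.52 ± 0.16). In L4 against L2-3 of GFP mice, 1 member rose (against 1.67% of genes) and 0 fell (against 4.4%). The riser was Dnah10, an inner arm chain, with 2.83, 1.98 and 2.53 CPM in L4 and 1.20, 0.957 and 0.891 CPM in L2-3 (1.29 ± 0.24, adjusted p = 0.0166, edgeR). The unadjusted p was under 0.05 for 7 of 55 members and 3308 of 15698 genes. Dnah10 failed without GFP mouse 2 or GFP mouse 3 and without the mouse block.

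In L5-6 against L4 of FOXP2 mice, 5 members rose (against 12.1% of all genes) and 2 fell (against 8.11%). Rsph4a had 1.15, 1.54 and 0.909 CPM in L5-6 of huFOXP2 mouse 1, huFOXP2 mouse 2 and the moFoxp2 mouse. In L4 of the same mice it had 0.0696, 0.138 and 0.55 CPM (2.39 ± 0.61, edgeR), which rest on 1, 2 and 6 counts. Rsph4a passed the filter on low counts through L5-6, where it is high, so no p-value is given. Cfap46 (1.51 ± 0.36), Dnah14 (1.43 ± 0.34), Cfap100 (1.30 ± 0.29) and Dnah6 (0.98 ± 0.23) rose, and Dnah5 (-0.96 ± 0.18) and Cfap206 (-0.92 ± 0.26) fell. None of the 5 risers passed without huFOXP2 mouse 2, whose L5-6 sum of the 21 members was the highest of the FOXP2 mice. In L5-6 against L4 of GFP mice, 24 were called higher (against 12.7% of all genes) and 0 lower (against 9.96%), and without GFP mouse 2 it was 6. Of the 50 members found by name pattern, 19 were called, with log2 fold changes such as 3.77 ± 0.42 for Dnah12 and 3.68 ± 0.55 for Dnah11. These calls too rest on the GFP L5-6 libraries, and some members passed the filter only through them, so nothing is read from the counts.

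Between FOXP2 and GFP mice in L2-3, 0 of 38 members passed (0.0722% of genes did, in either direction, by edgeR), and 0 by DESeq2. At an unadjusted p under 0.05 there were 5 of 38 members and 2412 of 15241 genes. The lowest log2 fold change was that of Rsph1, -1.14 ± 0.49, and Cfap43 was higher by 0.65 ± 0.19 (adjusted p = 0.158). In L4, 0 of 36 members passed (against 0.0275% of genes), and 0 by DESeq2. The unadjusted p was under 0.05 for 4 of 36 members and 457 of 14544 genes. Dnah8 had the lowest log2 fold change of the members in L4, -1.43 ± 0.50. Foxj1 in L4 had 2.64, 2.49 and 1.65 CPM in FOXP2 mice, against 3.71, 2.80 and 6.42 CPM in GFP mice (-0.95 ± 0.35). The median log2 fold change of the members was -0.08 in L2-3 and -0.23 in L4, with medians of all genes of -0.01 and 0.00.

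The difference of the FOXP2 effect between L5-6 and L2-3 was taken in 1 fit over 18 libraries with the mouse as a block. Of 55 members, 9 were called lower and 0 higher (against 8.66% and 6.75% of 15952 genes), with a median of -0.93 over members and 0.00 over all genes. The 9 calls were all lost without huFOXP2 mouse 1, at 0, and 3 were left without huFOXP2 mouse 2. As this contrast was known when the set was chosen, nothing is read from it.

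For 25 of the 61 members, the share of the sum of squares of log2(CPM + 0.5) between mice exceeded that between layers. There were more mice than layers, which by itself raises the share between mice, and that share includes the FOXP2 and GFP difference. It was not computed for all genes, so nothing is read from the 25. Rsph3b had 89.5% of its sum of squares between mice, Cfap97 83.4%, Cfap74 80.0%, Rsph1 72.4% and Dnah8 72.0%. Cfap74 had 4.91, 5.98 and 8.29 CPM in L2-3, L4 and L5-6 of huFOXP2 mouse 1, and 0.349, 1.11 and 1.98 CPM in the same layers of huFOXP2 mouse 2, mice that received the same construct. Within each FOXP2 mouse it was nevertheless higher in L5-6 than in L2-3. At the other end, Dnah14 had 74.4% of its sum of squares between layers and 11.4% between mice.

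The 10 genes outside the set whose log2 CPM was most like the mean of the 35 members with at least 1 CPM, over 18 libraries and among 14299 genes, were Ccdc40 (r = 0.931), 6820408C15Rik (0.928), Wdr78 (0.899), Mns1 (0.887), Ints2 (0.867), Spag8 (0.865), Drc7 (0.864), Vwa3a (0.863), Phldb1 (0.862) and Ago3 (0.861). Ccdc40, Drc7 and Mns1 encode axonemal proteins. Wdr78 had 2.17 to 3.46 CPM in L5-6 of FOXP2 mice, against 4.13 to 8.85 CPM in L5-6 of GFP mice. The broadly expressed Ints2, Phldb1 and Ago3 moved by less, such as Ints2 with 15.7 to 17.5 CPM in FOXP2 L5-6, against 17.9 to 21.4 CPM in GFP L5-6.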

How the data were processed

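The authors deposited raw read counts per gene for 18 libraries, without normalization. STAR, HTSeq and the mm10 build are named in the submitters' processing notes. Versions, gene models and strand setting: not given in the sources used here. Members and lists were chosen with earlier results of these data known. All 61 members matched GENCODE M21, used for positions and exon lengths, and 30 have exons overlapping another gene's.

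Counts were tested with edgeR 4.0.16 in R 4.3.3 (quasi-likelihood, TMM, filterByExpr with minimum count 10 and minimum total count 15), and p-values were adjusted by Benjamini-Hochberg over all genes tested. SE is the log2 fold change over the square root of F. 55 members passed the filter over 18 libraries. CPM are scaled by TMM. FOXP2 and GFP mice were compared within layers, and layers within mice with the mouse as a block, since the labels say layers were pooled per mouse. Deviations of same-mouse libraries correlated at 0.262 to 0.673 (18 of 18 above 0.1). Replicates differed beyond sampling noise (chi-square per degree of freedom 8.89 to 54.3). Scripts were checked on simulated data.

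The genes named are the 5 of the rule, the 4 of highest mean in each family, and per contrast up to 10 called per direction; others were named after their values were seen. Alternatives were RLE size factors, DESeq2 1.42.0, no filter, no or another block, and leaving out each mouse.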

Additional observations from a re-analysis of the deposited data

Results flagged for a closer look

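9 motile cilia genes were flagged because the FOXP2 effect in L5-6 was called different from that in L2-3. The fit had the mouse as a block (edgeR, past the adjusted threshold over all genes). The differences of log2 fold changes (L5-6 minus L2-3) were -4.69 ± 1.02 for Dnah12, -4.35 (SE 1.3) for Cfap126, -4.00 ± 0.83 for Lrrc23, -3.88 ± 0.77 for Dnah11, -2.93 ± 0.93 for Hydin, -2.48 ± 0.47 for Foxj1, -1.97 ± 0.60 for Dnaaf3, -1.62 ± 0.48 for Dnah6 and -1.59 ± 0.41 for Cfap43 (SE). They were 9 of 55 members tested, against 8.66% of all genes called lower. Without huFOXP2 mouse 1, and also with no mouse block, 0 of the 9 calls were kept. Dnah12, Cfap126, Dnah11 and Hydin passed the filter on low counts only through the GFP L5-6 libraries. All 9 genes were chosen with this contrast known, so the values are a description and nothing is read from the calls. Cfap43 had 5.28, 4.97 and 5.39 CPM in L2-3 of FOXP2 mice, against 3.14, 3.15 and 3.63 CPM in L2-3 of GFP mice, so that its difference lay in L2-3 too.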

How the results depend on the processing

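Of 964 values of named genes under the alternatives, 755 kept their call or stayed within the spread between mice, 193 no longer passed and 16, given without a test, moved by more than that spread. The sign changed only for the effect difference of Dnah14 (-0.13), which was 0.28 without GFP mouse 2 and 0.45 without the moFoxp2 mouse. Counts of members called under the alternatives are given here without the share of all genes called there, so nothing is read from them. Without the filter on low counts, 17 members were lower in the difference of the FOXP2 effect between L5-6 and L2-3 (main 9). Without it, 22 members were lower in FOXP2 than GFP in L5-6 (main 0) and 2 in L4 (main 0). In GFP mice, 4 rose and 1 fell in L4 over L2-3, 2 fell in L5-6 over L2-3 and 1 fell in L5-6 over L4. With DESeq2, 5 members were lower in that effect difference and 14 in FOXP2 than GFP in L5-6. In FOXP2 mice DESeq2 gave 1 higher and 1 lower in L4 over L2-3, 3 lower in L5-6 over L2-3 and 2 higher in L5-6 over L4. With no replicate block (mouse), counts were 0 for the effect difference, 0 higher for L4 over L2-3 in GFP mice, 3 lower for L5-6 over L2-3 and 1 lower for L5-6 over L4 in FOXP2 mice. GFP and FOXP2 mice shared only a number (4 of 9 pairs correlated above 0.1), and a replicate block on numbers 1 and 2 gave 0 members in every layer, as without it.

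Leaving out each mouse gave 0 to 9 lower for the effect difference; in FOXP2 mice 4 to 8 higher and 2 to 4 lower (L5-6 over L2-3), 0 to 2 higher and 3 to 3 lower (L4 over L2-3), 0 to 2 higher and 1 to 3 lower (L5-6 over L4). In GFP mice it gave 18 to 29 higher and 0 to 2 lower (L5-6 over L2-3), 0 to 2 higher and 0 to 2 lower (L4 over L2-3), and 6 to 22 higher and 0 to 1 lower (L5-6 over L4). FOXP2 against GFP stayed at 0 in each layer. The count above all other libraries was 21 to 36, and that above FOXP2 L5-6 was 34 to 41, in alternatives chosen after seeing the data. The log2 ratio of summed member CPM in L5-6, -0.46, was -0.58 to -0.33, and -0.83 as a mean of log2(CPM + 0.5). The causes were not tested. Depth limits the members outside the 35 with a mean of at least 1 CPM, which rest on few counts a library.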
